A study of Mus musculus with 36 samples.

Results

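The 5 genes described here encode the coat of caveolae in cells other than muscle: the caveolins Cav1 and Cav2 and the cavins Cavin1, Cavin2 and Cavin3. They were taken by symbol, 5 of the 32285 mouse gene IDs in the deposited count table, and all 5 were counted in every library. RNA was sequenced from mouse breast cancer cells of the lines E0771, from a mammary adenocarcinoma, and AT-3, from a mammary tumour of a mouse carrying the MMTV-PyMT transgene, and the series concerns gene expression driven by the coactivator MRTFA and its partner SRF, cell stiffness and cellular calcium and potassium. Each line was cultured in a dish for 24 h and then given 1 of 6 treatments for 24 h: 40 mM KCl with 10 µM BMS204352, 40 mM KCl with 10 µM NS11021, 40 mM KCl, 10 µM BMS204352, 10 µM NS11021, or DMSO, the vehicle. NS11021 opens BK potassium channels and BMS204352 opens BK and KCNQ channels. Raised external KCl depolarizes cells and also raises osmolarity and chloride, and no group matched for these was among the 12. The labels do not say whether cells given KCl also received DMSO, so comparisons of KCl with DMSO may differ in vehicle too. Each group held 3 libraries, 36 in all.

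Caveolae are small flask-shaped pits of the plasma membrane that flatten under tension and act as a membrane reserve, and they also gather signalling receptors. Cav1 inserts into the inner leaflet as large oligomers, and Cav2 joins these oligomers and needs Cav1 to leave the Golgi. The cavins are soluble coiled-coil proteins that coat the pit from the cytosol: Cavin1 is needed for pits to form, Cavin2 helps to bend and elongate the membrane, and Cavin3 is a protein kinase C delta binding protein that joins the coat through Cavin1.

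In the GENCODE vM21 annotation of GRCm38, Cav2 (ENSMUSG00000000058, chr6:17281185-17289115) and Cav1 (ENSMUSG00000007655, chr6:17306335-17341452) lie on the plus strand with 17220 bases between them, each the other's nearest coding gene. Cavin1 (ENSMUSG00000004044) lies at chr11:100956733-100970887 on the minus strand, Cavin2 (ENSMUSG00000045954) at chr1:51289126-51302960 on the plus strand and Cavin3 (ENSMUSG00000037060) at chr7:105480083-105482300 on the minus strand. Antisense gene models run across Cav1, Cav2 and Cavin2 but share 0 exon bases with them. A gene model on the other strand shares 374 of the exon bases of Cavin3 (22.5%), and since the counting strand is not given in the sources used here, reads there cannot be told apart.

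RefSeq promoter windows of 300 bases (250 before the start of transcription and 50 after, GRCm38.p6) were found for 4 of the 5 genes. They are shown because Cavin1 and Cavin2, which the lines express in opposite proportions, differ in base composition, while the neighbours Cav1 and Cav2 both carry GC boxes. The windows are chr11:100970566-100970865 (minus strand) for Cavin1, chr1:51288876-51289175 (plus) for Cavin2, chr6:17306085-17306384 (plus) for Cav1 and chr6:17280935-17281234 (plus) for Cav2. Capitals mark the GC box GGGCGG, the TATA box TATAAA and the TEAD motif GGAATG, on either strand. In Cav2 both GC boxes share a base.
Cavin1: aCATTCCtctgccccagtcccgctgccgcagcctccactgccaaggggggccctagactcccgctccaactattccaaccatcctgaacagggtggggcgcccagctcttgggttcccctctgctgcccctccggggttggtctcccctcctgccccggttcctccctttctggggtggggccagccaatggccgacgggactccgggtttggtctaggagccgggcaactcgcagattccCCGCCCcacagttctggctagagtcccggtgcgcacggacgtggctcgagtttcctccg
Cavin2: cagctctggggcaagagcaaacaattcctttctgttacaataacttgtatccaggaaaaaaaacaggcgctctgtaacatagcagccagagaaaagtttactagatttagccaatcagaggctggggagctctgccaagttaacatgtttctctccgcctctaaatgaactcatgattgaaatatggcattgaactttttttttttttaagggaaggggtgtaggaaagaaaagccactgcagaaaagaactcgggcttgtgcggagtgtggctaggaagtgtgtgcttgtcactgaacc
Cav1: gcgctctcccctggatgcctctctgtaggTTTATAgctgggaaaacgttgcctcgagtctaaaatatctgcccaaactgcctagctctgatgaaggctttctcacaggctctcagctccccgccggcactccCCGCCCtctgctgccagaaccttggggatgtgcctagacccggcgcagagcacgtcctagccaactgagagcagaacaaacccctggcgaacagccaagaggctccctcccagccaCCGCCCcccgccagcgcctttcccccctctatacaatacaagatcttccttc
Cav2: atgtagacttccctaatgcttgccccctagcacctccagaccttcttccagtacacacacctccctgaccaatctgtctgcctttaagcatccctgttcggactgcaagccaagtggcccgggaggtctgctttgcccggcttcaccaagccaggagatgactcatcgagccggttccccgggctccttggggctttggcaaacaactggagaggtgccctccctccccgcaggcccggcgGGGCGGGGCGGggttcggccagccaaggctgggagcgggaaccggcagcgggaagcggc
The Cavin2 window held 43.3% G or C and 4 CpG dinucleotides, below the medians of 52.7% and 7 over all 32851 mouse windows. The Cavin1, Cav1 and Cav2 windows held 67.0%, 59.3% and 64.3% G or C, with 18, 13 and 16 CpG. GC boxes were found 2 times in Cav1, 2 times in Cav2, 1 time in Cavin1 and not in Cavin2, and 35.7% of all windows hold one. The TEAD motif was in Cavin1, as in 14.7% of windows, and a TATA box in Cav1, as in 13.6%, 221 bases before the start and on the opposite strand. The E-box CANNTG, which is not capitalised and reads the same on both strands, was in Cav1 and Cav2 and in 72.3% of windows. A CArG box, the sequence that SRF binds, was in none of these 4 windows, and 1.63% of all windows hold one. These matches describe letters and are not sites shown to be used. A further Cav1 window and a further Cavin1 window 2 bases away are annotated and not printed.

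Library totals were 31.2 to 47.9 M counts in E0771 and 38.5 to 52.6 M in AT-3. Levels are given as CPM, counts per M of library total, and, where genes are set against each other, as CPM per kb of exon. The labels do not say that replicates came from separate cultures, so p-values measure only the spread between libraries, which may be technical. All changes are log2 changes with standard errors (SE) from edgeR's quasi-likelihood fit, and a gene passed at a Benjamini-Hochberg adjusted p below 0.05 over all genes tested. E0771 went against part of its epithelial label: of 5 luminal markers Krt8 was present at 202 CPM in DMSO while Epcam, Krt7, Krt18 and Krt19 were at 0.302 CPM or less, and 4 basal markers (Krt5, Krt14, Krt17, Trp63) summed to 0 to 0.346 CPM over all its libraries. In AT-3 the same basal markers summed to 2151 to 2728 CPM. Of the luminal markers AT-3 had Krt7 at 468, Epcam at 122 and Krt18 at 21.4 CPM in DMSO, but Krt8 at 0.35 and Krt19 at 0.408 CPM. The fibroblast markers Pdgfra, Pdgfrb, Col1a1, Col1a2, Dcn and Lum summed to 216 to 260 CPM in E0771, with 2 of the 6 at 0 in every library, and to 37.4 to 70.0 CPM in AT-3. Adipocyte markers summed to at most 1.09 CPM in any library and endothelial markers to at most 4.34 CPM. The replicate 3 libraries of BMS204352 in both lines, and of KCl with BMS204352 in AT-3, stood apart. BMS204352 libraries scored 3.37, -1.07 and 30.2 on principal component PC3 of E0771 and 17.2, 22.1 and 65.9 on PC1 of AT-3. On PC2 of E0771, replicate 3 of KCl with BMS204352 also lay away from its group, at 15.25 beside 0.179 and 3.93. The BMS204352 libraries scored 0.512, -0.419 and 16.3 there. That combination library is not among the 3 libraries that stood apart, and the fits without those 3 keep it.

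The lines differed in which cavins they expressed. In DMSO, Cavin1 had 674, 660 and 675 CPM in E0771, against 17.2, 10.5 and 16.5 CPM in AT-3. Cavin2 had 1.85, 2.54 and 2.25 CPM in E0771, against 95.0, 88.5 and 95.5 CPM in AT-3. Cavin3 had 43.3, 43.7 and 40.8 CPM in E0771, against 1.46, 1.14 and 0.799 CPM in AT-3. For all 3 cavins the lines did not overlap in any treatment: the lowest E0771 library stood 5.59-fold above the highest AT-3 library for Cavin1 and 12.4-fold for Cavin3, and the highest E0771 library stood 7.29-fold below the lowest AT-3 library for Cavin2. The log2 difference in DMSO (E0771 minus AT-3) was 5.50 ± 0.43 for Cavin1 (adjusted p = 1.05e-11), 5.25 ± 0.19 for Cavin3 (2.49e-22) and -5.39 ± 0.21 for Cavin2 (7.55e-19), by edgeR over all 36 libraries. These are folds of 45.4 higher, 38.1 higher and 42.0 lower. Cavin3 counts were 40 to 136 per library in AT-3 and Cavin2 counts 24 to 429 in E0771, so these low sides rest on few reads; intervals and errors here cover counting error and the spread between libraries only.

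The caveolins differed far less. Cav2 had 92.7, 76.4 and 77.3 CPM in E0771 in DMSO, against 58.3, 50.8 and 52.5 CPM in AT-3. It was higher in E0771 by 0.61 ± 0.08 (1.52-fold, adjusted p = 3.99e-08), with no overlap in DMSO, although over all treatments the highest AT-3 library (73.6 CPM) lay above the lowest E0771 library (67.0 CPM). Cav1 had 139, 140 and 137 CPM in E0771, against 160, 133 and 162 CPM in AT-3, and the groups overlapped (difference -0.13 ± 0.15, adjusted p = 0.444). Thus 4 of the 5 genes passed between the lines in DMSO, where 74.5% of the 15969 genes tested passed, so the share of members is near the background. All 4 calls held in each of 14 alternative analyses. The comparison sets 1 line against 1 other and is not replicated over lines, and in bulk RNA fewer cells expressing a gene and less RNA per cell cannot be told apart.

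**Figure D1:**
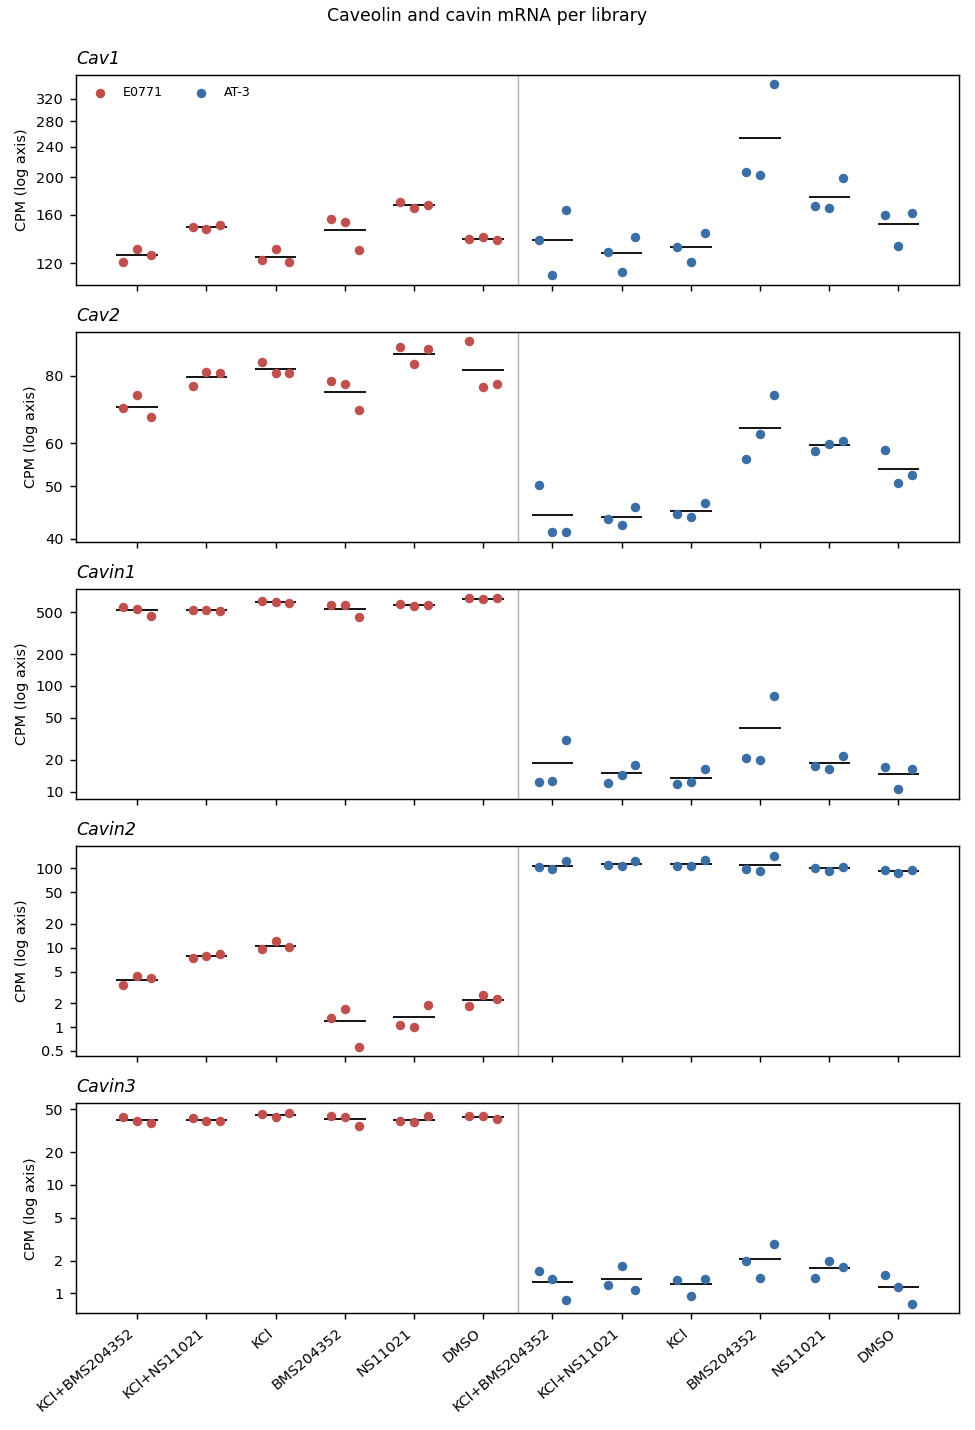
CPM (log axis) of Cav1, Cav2, Cavin1, Cavin2 and Cavin3 in each of the 3 libraries of the 12 groups, E0771 on the left in red and AT-3 on the right in blue; black lines are group means. Cavin1 and Cavin3 lie higher in E0771 and Cavin2 higher in AT-3 in every treatment, and within E0771 Cavin2 is highest in the 3 groups given KCl.

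Set per kb of exon, the order of the genes in DMSO was Cavin1, Cav1, Cavin3, Cav2 and Cavin2 in E0771, at means of 187, 40.3, 25.6, 24.6 and 0.725 CPM per kb. In AT-3 it was Cav1, Cavin2, Cav2, Cavin1 and Cavin3, at 44.1, 30.4, 16.2, 4.11 and 0.682 CPM per kb. The one pair of neighbours whose libraries overlapped was Cavin3 and Cav2 in E0771. The summed level of the caveolins was 64.9 ± 2.78 CPM per kb in E0771 and 60.2 ± 5.51 in AT-3 (SD, n = 3 each). The summed level of the cavins was 213 ± 1.73 CPM per kb in E0771 and 35.2 ± 2.30 in AT-3. The ratio of cavin to caveolin level was 3.29 ± 0.12 in E0771 and 0.586 ± 0.016 in AT-3. Cavin1 made up 87.6% of the cavin level in E0771 and 11.6% in AT-3, Cavin2 0.341% in E0771 and 86.5% in AT-3, and Cavin3 12.0% in E0771 and 1.94% in AT-3. Exon length per kb assumes that all annotated exons are transcribed, so these shares are approximate.

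**Figure D2:**
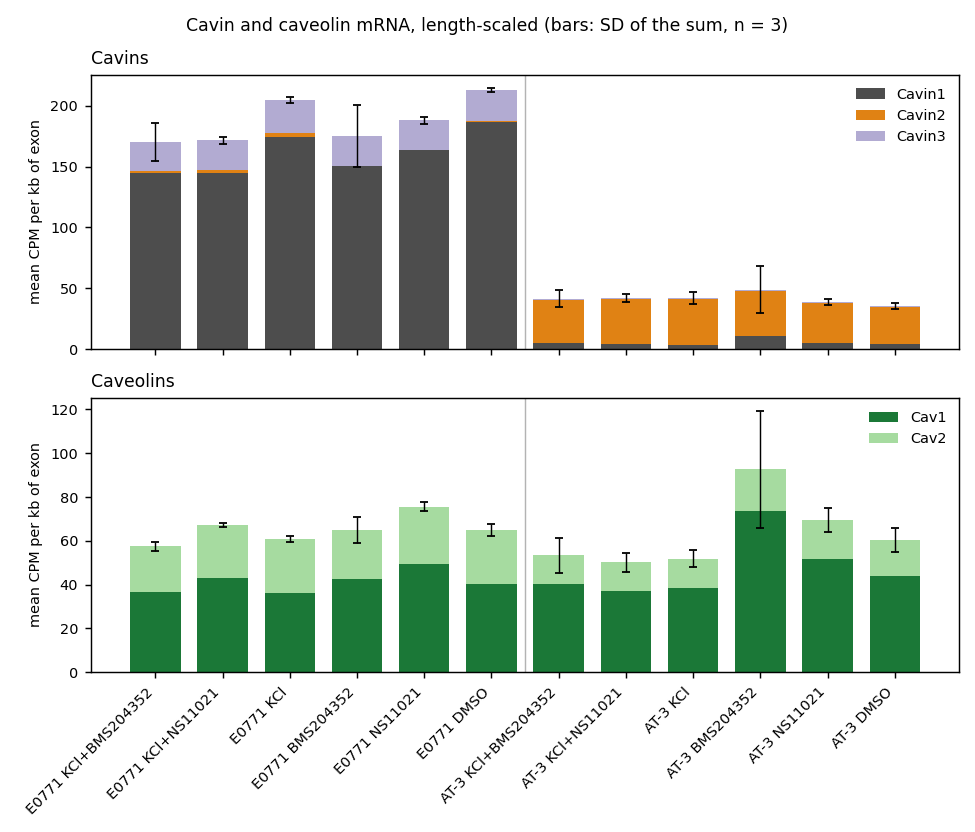
Mean CPM per kb of exon of the cavins (top) and caveolins (bottom), stacked by gene, in the 12 groups, E0771 left of AT-3; error bars are the SD of the sum over 3 libraries. The cavin sum is mostly Cavin1 in every E0771 group and mostly Cavin2 in every AT-3 group, while the caveolin sums of both lines overlap; the tall AT-3 BMS204352 error bars come with a replicate 3 library that stood apart.

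In E0771, 40 mM KCl raised Cavin2. It had 9.58, 12.2 and 10.1 CPM with KCl (362, 406 and 429 counts), against 1.85, 2.54 and 2.25 CPM in DMSO (76, 100 and 78 counts). Every KCl library lay above every DMSO library, and the change was 2.27 ± 0.23 (4.82-fold, adjusted p = 7.76e-09), past the threshold in all 14 alternatives with a range of 2.15 to 2.38. Even so, the highest E0771 level, 12.2 CPM, stayed below the lowest AT-3 level, 88.5 CPM, and Cavin2 made up 1.70% of the cavin level with KCl and 0.341% in DMSO. Cav1 had 122, 131 and 121 CPM with KCl and 139, 140 and 137 CPM in DMSO, with no overlap. It fell by 0.15 ± 0.05 (adjusted p = 0.0253). Cavin1 (-0.09 ± 0.09), Cav2 (0.01 ± 0.06) and Cavin3 (0.08 ± 0.07) did not pass. Hence 2 of 5 genes passed, where 36.4% of the 13357 genes tested did. The Cav1 call was lost without DMSO replicate 1 (adjusted p = 0.0638), 2 (0.0630) or 3 (0.0504) and without KCl replicate 1 (0.0833) or 3 (0.106), with changes of -0.15 to -0.12.

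Cavin2 is abundant in endothelium, and the endothelial markers, taken as a sum, were higher in the same libraries. The 5 endothelial markers summed to 2.01 to 4.34 CPM with KCl and to 0.661 to 1.02 CPM in DMSO. Most of this was Pecam1, an adhesion receptor that is also made by blood cells, at 1.90, 3.92 and 2.78 CPM with KCl and 0.683, 0.458 and 0.750 CPM in DMSO. The other 4 had few counts and no common direction. Cdh5 had 4, 4 and 0 counts with KCl and 0, 2 and 0 in DMSO. Kdr had 0, 8 and 0 with KCl and 2, 6 and 0 in DMSO, and Tek 0, 2 and 2 with KCl and 12, 0 and 0 in DMSO. Emcn had 0 in both groups. The endothelial markers also summed to 1.52 to 2.58 CPM with KCl and BMS204352 and 1.86 to 2.68 CPM with KCl and NS11021. Other lists also differed between KCl and DMSO without overlap. Smooth muscle markers summed to 111 to 128 CPM with KCl and 89.6 to 93.2 CPM in DMSO. Luminal markers summed to 157 to 166 and 201 to 205 CPM, and leukocyte markers to 2.60 to 3.70 and 4.83 to 5.32 CPM. The basal, fibroblast and adipocyte sums overlapped. The part of any list in the Cavin2 result was not tested. Carry-over from AT-3 was measured with 75 genes that had at least 50 CPM in every AT-3 library and 0 counts in the E0771 DMSO libraries. They reached at most 0.00798% of their AT-3 level in any E0771 library of the other treatments. At that share the highest AT-3 Cavin2 level would give 0.0115 CPM. The DMSO libraries stand at 0 through the choice of these genes, so carry-over into them was not measured.

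The potassium channel openers, given alone to E0771, moved Cavin2 the other way. Cavin2 had 1.05, 0.994 and 1.92 CPM with NS11021 and 1.31, 1.67 and 0.568 CPM with BMS204352, against 1.85, 2.54 and 2.25 CPM in DMSO. One NS11021 library overlapped the DMSO range and no BMS204352 library did. The changes were -0.72 ± 0.26 with NS11021 (adjusted p = 0.0424) and -0.92 ± 0.27 with BMS204352 (adjusted p = 0.0139), from 24 to 100 counts per library. The NS11021 call was lost without NS11021 replicate 1 (adjusted p = 0.168) or 2 (0.182) and without DMSO replicate 2 (0.154) or 3 (0.102), and also on halved counts (0.0527) and in a fit to the groups compared alone (0.0679). Cavin2 changed by -0.56 without BMS204352 replicate 3, the library that stood apart (adjusted p = 0.113), and the call was also lost without DMSO replicate 2 (0.0656) and in a fit to the groups compared alone (0.104). Leukocyte markers moved with both compounds: the 5 summed to 11.4 to 12.0 CPM with BMS204352 and 14.2 to 15.5 CPM with NS11021, against 4.83 to 5.32 CPM in DMSO, nearly all of it the lysosomal gene Cd68, while Ptprc, the pan-leukocyte marker, had 12 counts over the 18 E0771 libraries. Their part in the results was not tested.

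Cav1 rose with NS11021. It had 172, 167 and 170 CPM with NS11021, against 139, 140 and 137 CPM in DMSO, a change of 0.29 ± 0.05 (1.22-fold, adjusted p = 8.87e-05) that held in all 14 alternatives. With BMS204352 it had 156, 154 and 130 CPM, and the change of 0.08 ± 0.05 did not pass (adjusted p = 0.276). Smooth muscle markers were higher in the same NS11021 libraries: the 4 (Myh11, Acta2, Cnn1, Des) summed to 156 to 166 CPM with NS11021, against 89.6 to 93.2 CPM in DMSO. They also summed to 53.0 to 83.1 CPM with BMS204352. With KCl they summed to 111 to 128 CPM, above DMSO, while Cav1 with KCl was below DMSO, at 122, 131 and 121 CPM. Nearly all of the marker sum was the actin gene Acta2, with 73175 counts over the 18 E0771 libraries. The smooth muscle myosin Myh11 had 104 counts and Cnn1 120. The part of these markers in the Cav1 results was not tested. For Cav1 with BMS204352, replicate 3 was the lowest, and without it the change was 0.16 and passed (adjusted p = 0.00999). Cav2 did not pass with NS11021 (0.10 ± 0.06) or BMS204352 (-0.13 ± 0.06, and -0.07 without replicate 3). The NS11021 change was 0.20 and passed without DMSO replicate 1 (adjusted p = 0.0208), whose Cav2 level of 92.7 CPM was the highest of the 3 DMSO libraries.

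Cavin1 had 583, 589 and 447 CPM with BMS204352 and 597, 577 and 583 CPM with NS11021, against 674, 660 and 675 CPM in DMSO. All libraries of both compounds lay below all DMSO libraries. With BMS204352 it fell by 0.31 ± 0.09 (adjusted p = 0.0206), and the call was lost without DMSO replicate 1 (adjusted p = 0.0590) or 3 (0.0600) and in a fit to the groups compared alone (0.0806). Without BMS204352 replicate 3, the lowest, the change was -0.19 and passed (adjusted p = 0.00911). The NS11021 change of -0.20 ± 0.09 did not pass (adjusted p = 0.118). It passed in 3 of 14 alternatives: DESeq2 (adjusted p = 0.0309), without the 3 libraries that stood apart (0.00156) and the groups compared alone (1.71e-05). In the 6 fits with 1 replicate left out it passed 0 times (0.168 to 0.238). Cavin3, at 35.0 to 43.5 CPM with BMS204352, 38.1 to 43.3 CPM with NS11021 and 40.8 to 43.7 CPM in DMSO, did not pass with either. In all, 2 of 5 genes passed with NS11021, where 26.3% of genes tested did, and 2 of 5 with BMS204352, where 22.7% did.

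When a compound was given together with KCl to E0771, Cavin2 lay between its KCl and DMSO levels. It had 3.40, 4.38 and 4.10 CPM with KCl and BMS204352, 7.46, 7.87 and 8.29 CPM with KCl and NS11021, and 9.58, 12.2 and 10.1 CPM with KCl alone. None of these 3 groups overlapped another, or DMSO. Against KCl alone, Cavin2 fell by 1.43 ± 0.22 with BMS204352 added (2.70-fold lower, adjusted p = 2.89e-05), a call that held in all 14 alternatives with changes of -1.51 to -1.33. With NS11021 added the change was -0.43 ± 0.21 and did not pass (adjusted p = 0.178). Both comparisons share the KCl libraries, and the difference between them was not tested. Against DMSO, Cavin2 rose by 0.84 ± 0.24 with KCl and BMS204352 (adjusted p = 0.00841) and by 1.84 ± 0.23 with KCl and NS11021 (adjusted p = 2.96e-07). The first of these calls was lost without DMSO replicate 1 (0.72, adjusted p = 0.0565).

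In E0771, Cavin1 was lower when KCl and a compound were combined than with KCl alone or in DMSO, without overlap. Levels with KCl and NS11021 also lay below those with NS11021 alone (597, 577 and 583 CPM) without overlap. Both combinations overlapped BMS204352 alone (583, 589 and 447 CPM) only through its replicate 3, which stood apart. Cavin1 had 558, 542 and 460 CPM with KCl and BMS204352 and 523, 526 and 509 CPM with KCl and NS11021. Levels were 636, 627 and 614 CPM with KCl and 674, 660 and 675 CPM in DMSO. Against DMSO it fell by 0.37 ± 0.09 with BMS204352 and KCl (adjusted p = 0.00562) and by 0.35 ± 0.09 with NS11021 and KCl (adjusted p = 0.00491), both held in all 14 alternatives. Against KCl alone it fell by 0.28 ± 0.09 with BMS204352 (adjusted p = 0.0379). That call was lost without KCl replicate 1 (adjusted p = 0.103), 2 (0.0856) or 3 (0.0681) and without replicate 3 of the combination, its lowest library (-0.19, 0.141), and also with no filter on low counts (0.0543). With NS11021 the change against KCl was -0.27 ± 0.09 and just missed the threshold (adjusted p = 0.0507), passing in 7 of 14 alternatives. Among these were the fits without the 3 libraries that stood apart (7.61e-05) and to the groups compared alone (1.55e-10). In the 6 fits with 1 replicate left out it passed 0 times (0.0848 to 0.123).

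Cav1 rose when NS11021 was added to KCl, as it did with NS11021 alone. It had 149, 147 and 151 CPM with KCl and NS11021, against 122, 131 and 121 CPM with KCl alone (0.26 ± 0.05, adjusted p = 0.000644, held in all 14 alternatives). Smooth muscle markers summed to 149 to 163 CPM with KCl and NS11021, against 111 to 128 CPM with KCl alone. BMS204352 added to KCl left it at 121, 130 and 126 CPM (0.0040 ± 0.05, adjusted p = 0.971). Against DMSO, Cav1 fell by 0.14 ± 0.05 with KCl and BMS204352 (adjusted p = 0.0363). That call was lost without DMSO replicate 1 (adjusted p = 0.0893), 2 (0.0886) or 3 (0.0745) and without combination replicate 1 (0.1501) or 3 (0.0811). With KCl and NS11021 the change against DMSO was 0.12 ± 0.05 and did not pass (adjusted p = 0.0782).

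Cav2 fell in E0771 with the BMS204352 combination. It had 69.8, 73.7 and 67.0 CPM with KCl and BMS204352, against 84.8, 81.1 and 80.9 CPM with KCl (-0.24 ± 0.06, adjusted p = 0.00611, held in all 14 alternatives). Against DMSO the change was -0.23 ± 0.06 (adjusted p = 0.00593), lost without DMSO replicate 1 (-0.13, adjusted p = 0.135). With KCl and NS11021 it had 76.6, 81.2 and 80.9 CPM and did not pass against KCl or DMSO. Cavin3 did not pass in either combination: its changes against KCl were -0.19 ± 0.07 with BMS204352 (adjusted p = 0.0707) and -0.15 ± 0.07 with NS11021 (adjusted p = 0.175). Against DMSO, 4 of 5 genes passed with KCl and BMS204352, where 28.6% of genes tested did, and 2 of 5 with KCl and NS11021, where 38.6% did. Against KCl, 3 of 5 passed with BMS204352, where 19.9% of genes tested did, and 1 of 5 with NS11021, where 17.2% did.

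**Figure D3:**
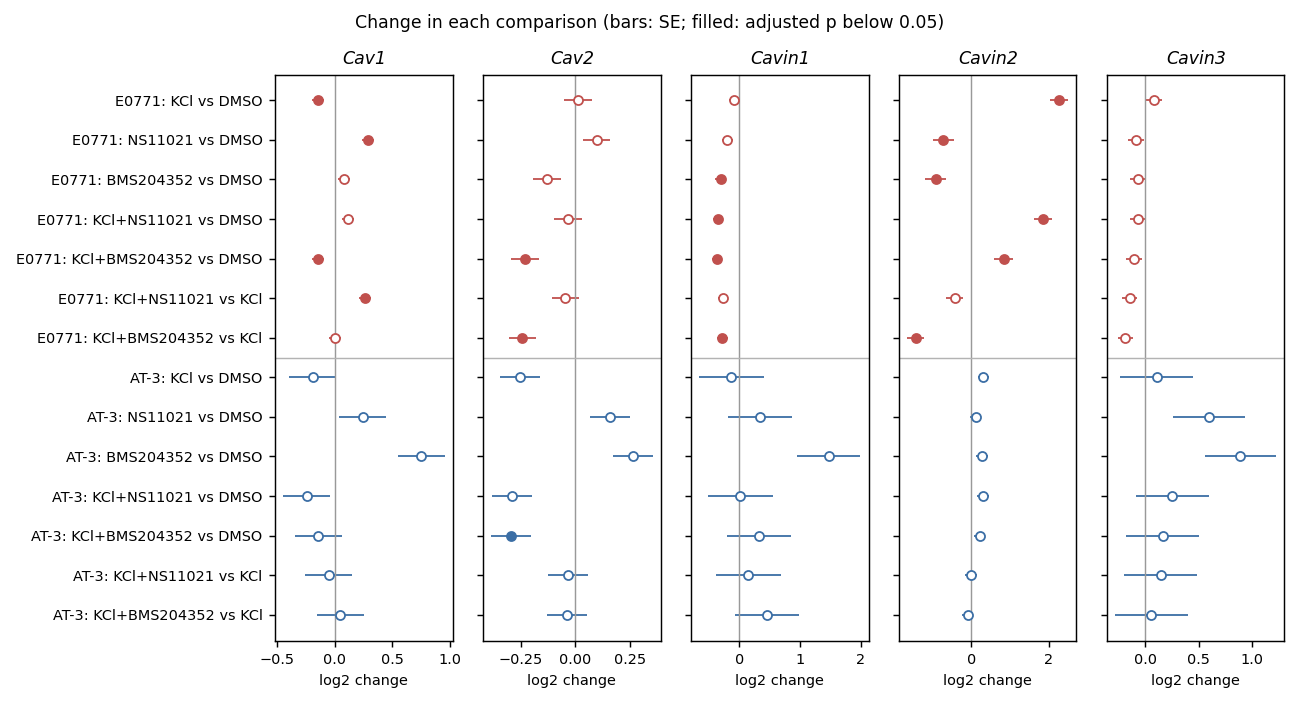
Log2 change of each gene in 7 comparisons per line, E0771 (red) above AT-3 (blue); points are fitted changes, bars are SE, and filled points had an adjusted p below 0.05. The x axes differ between genes. The Cavin2 panel shows rises with KCl and falls with either compound in E0771, and 1 filled point stands in AT-3, Cav2 with KCl and BMS204352.

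In AT-3 the 5 genes rarely passed, and so did genes at large. Across the same 7 comparisons, which share DMSO or KCl libraries, 16 of 35 gene-by-comparison tests passed in E0771 and 1 of 35 in AT-3. Of all genes tested, 17.2% to 38.6% passed per comparison in E0771 and 0.0203% to 13.1% in AT-3. The difference between the 2 member counts was not tested. These counts come from fits without a replicate block. With replicate number as a block in edgeR, Cavin2 newly passed in AT-3 with KCl (adjusted p = 0.0360) and with KCl and NS11021 (0.0346). Cav2 newly passed there with KCl and NS11021 (0.0412) and Cav1 with BMS204352 (0.00291). In E0771 the block newly passed Cavin1 with NS11021 added to KCl (0.0175). Replicates were more spread in AT-3: the fitted coefficient of variation between replicates was 0.0707 in E0771 and 0.116 in AT-3. The gene that passed in AT-3 without the block was Cav2. It had 50.3, 41.1 and 41.1 CPM with KCl and BMS204352, against 58.3, 50.8 and 52.5 CPM in DMSO (-0.29 ± 0.09, adjusted p = 0.0399). It was lost without DMSO replicate 1 (adjusted p = 0.155) or 3 (0.0743) and without combination replicate 2 (0.145) or 3 (0.144), and passed without the 3 libraries that stood apart (-0.25, 0.0405). Cav2 values were also below DMSO without overlap with KCl (44.5, 43.9 and 46.6 CPM, -0.25 ± 0.09, adjusted p = 0.129) and with KCl and NS11021 (43.5, 42.3 and 45.8 CPM, -0.29 ± 0.09, adjusted p = 0.0767). Both passed without the 3 libraries that stood apart (adjusted p = 0.0252 with KCl and 0.0107 with KCl and NS11021).

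Cavin2, the main cavin of AT-3, had 108, 107 and 129 CPM with KCl, against 95.0, 88.5 and 95.5 CPM in DMSO. The libraries did not overlap, and the change of 0.31 ± 0.15 did not pass (adjusted p = 0.293), although it did without the 3 libraries apart (adjusted p = 0.00545). With KCl and NS11021 it had 111, 108 and 123 CPM (0.30 ± 0.15, adjusted p = 0.286, and 0.00529 without those libraries). With NS11021 alone it had 100, 93.7 and 105 CPM and with BMS204352 97.3, 92.1 and 145 CPM, and neither passed. The BMS204352 change was 0.27 ± 0.15 (adjusted p = 0.300), and 0.03 without replicate 3 (0.946).

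With BMS204352 in AT-3, Cav1 had 207, 203 and 349 CPM, against 160, 133 and 162 CPM in DMSO, with no overlap. The change was 0.75 ± 0.20 (1.68-fold) at an adjusted p of 0.0514, and it passed with DESeq2 (adjusted p = 0.0106), a filter of 1 CPM in 3 libraries (0.0401) and halved counts (0.0458). In all it passed in 6 of 14 alternatives, the other 3 being the replicate block (0.00291) and the fits without BMS204352 replicate 1 (0.87, adjusted p = 0.0240) or 2 (0.89, 0.0247), both of which keep the library that stood apart. Without that library, replicate 3, the Cav1 change was 0.44 and did not pass (adjusted p = 0.247), nor did it without all 3 libraries that stood apart (0.44, 0.111). Cav2 changed by 0.26 ± 0.09 (adjusted p = 0.0952), by 0.34 without BMS204352 replicate 1 (0.0218, the 1 alternative in which it passed) and by 0.14 without replicate 3 (0.541). Cavin1 had 21.0, 19.8 and 79.9 CPM with BMS204352 against 17.2, 10.5 and 16.5 CPM in DMSO. Its change of 1.47 ± 0.52 did not pass (adjusted p = 0.122) except with DESeq2 (0.0434), and replicate 3 held the highest Cavin1 level of the 18 AT-3 libraries. Without replicate 3 the Cavin1 change was 0.47 (adjusted p = 0.721). Replicate 3 of KCl with BMS204352 was also its group's highest for Cavin1, at 30.7 CPM beside 12.2 and 12.5 CPM. Cavin3 had 2.0, 1.39 and 2.83 CPM with BMS204352, against 1.46, 1.14 and 0.799 CPM in DMSO, which overlapped, a change of 0.89 ± 0.34 (adjusted p = 0.121) and of 0.59 without replicate 3 (0.573). The leukocyte markers summed to 8.43 to 22.4 CPM with BMS204352 in AT-3 and to 4.34 to 5.55 CPM in DMSO, with Ptprc at 0 in all 18 libraries. Other marker lists were also higher with BMS204352 without overlap: the endothelial list summed to 2.66 to 4.28 CPM with BMS204352 and 1.67 to 1.92 CPM in DMSO, the luminal list to 711 to 968 CPM with BMS204352 and 555 to 655 CPM in DMSO, and the basal list to 2607 to 2728 CPM with BMS204352 and 2202 to 2437 CPM in DMSO. With NS11021 in AT-3 the luminal list (734 to 807 CPM) and the basal list (2441 to 2469 CPM) also lay above DMSO without overlap. The endothelial list with NS11021 (1.17 to 2.25 CPM) overlapped DMSO. The part of these lists in the results was not tested.

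For the members in AT-3, 0 of 5 passed with KCl, where 4.83% of the 14772 genes tested did, 0 with NS11021 (0.0745% of genes), 0 with BMS204352 (5.27%) and 0 with KCl and NS11021 (5.03%). With KCl and BMS204352, 1 of 5 passed, where 13.1% of genes did. Against KCl, 0 passed with NS11021 added (0.0203% of genes) and 0 with BMS204352 added (1.24%). At an unadjusted p below 0.05 the edgeR counts were 1 with KCl, 0 with NS11021, 4 with BMS204352, 1 with KCl and NS11021, and 0 in both comparisons against KCl. DESeq2 passed 2 of 5 with BMS204352 and 0 in the other comparisons where edgeR passed 0.

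The interaction term asks whether the effect of a compound differed between cells in KCl and cells in DMSO. By edgeR, 0 of 5 genes passed for NS11021 in E0771 (0.217% of genes tested), for BMS204352 in E0771 (1.62%), for NS11021 in AT-3 (0%) or for BMS204352 in AT-3 (0%), and DESeq2 also gave 0 in each. Over all genes in AT-3 the edgeR and DESeq2 counts were both 0 for either compound, with 299 genes for NS11021 and 533 for BMS204352 at an unadjusted p below 0.05 by edgeR. At an unadjusted p below 0.05 there were 2 members for BMS204352 in AT-3, Cav1 (-0.70 ± 0.29) and Cav2 (-0.30 ± 0.13), and 0 in the other 3 terms. Without AT-3 BMS204352 replicate 3 these were -0.39 and -0.18, and without the 3 libraries that stood apart -0.54 and -0.14. Cavin2 in E0771 had an interaction of -0.52 ± 0.35 with BMS204352 and 0.29 ± 0.34 with NS11021, on the log2 scale, neither of which passed. The BMS204352 term was -0.87 without BMS204352 replicate 3 (adjusted p = 0.133) and -0.19 without BMS204352 replicate 2 (0.879).

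The response of Cavin2 to KCl differed between the lines on the log2 scale. The difference of the KCl effects (E0771 minus AT-3) was 1.95 ± 0.28 (adjusted p = 2.44e-05), and it passed in all 20 alternatives. Mean levels went from 2.2 to 10.6 CPM in E0771 and from 93.0 to 115 CPM in AT-3, so the larger rise in CPM was in AT-3, where the change did not pass. Cavin2 was the 1 member to pass, where 9.13% of the 15969 genes tested did. For the NS11021 effect 0 of 5 passed (3.99% of genes), with 2 at an unadjusted p below 0.05, Cavin2 (-0.82 ± 0.33) and Cavin3 (-0.72 ± 0.27), and 0 by DESeq2. For the BMS204352 effect 4 of 5 passed (5.01% of genes): Cavin1 (-1.78 ± 0.51, adjusted p = 0.0425), Cavin2 (-1.21 ± 0.35, 0.0388), Cavin3 (-0.99 ± 0.26, 0.0223) and Cav2 (-0.40 ± 0.12, 0.0358). All 4 calls were lost without the 3 libraries that stood apart, with differences of -0.65 (adjusted p = 0.123), -0.59 (0.228), -0.58 (0.209) and -0.21 (0.337). Each was also lost without BMS204352 replicate 3 of E0771 or of AT-3, without AT-3 DMSO replicate 2 or 3, and in a fit to the groups compared alone. Leaving out any 1 of E0771 DMSO replicates 1 to 3, E0771 BMS204352 replicates 1 and 2 or AT-3 DMSO replicate 1 ended the Cavin1 call and that of 1 other gene, Cav2 without E0771 DMSO replicate 1 or BMS204352 replicate 2 and Cavin2 in the other 4. The Cavin2 call was also lost on halved counts (adjusted p = 0.0709) and with no filter (0.0705), and the Cavin1 call with no filter (0.0627).

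The partners of the coat were followed through 29 genes for membrane bending, actin linkage, flat membrane scaffolds, caveolin turnover and receptors in caveolae. The muscle forms were nearly absent: Cav3 had 0 counts in AT-3 and 30 counts over the 18 libraries of E0771, and Cavin4 had 0.131 CPM in E0771 and 1.04 CPM in AT-3 in DMSO. Of 27 partners tested between the lines in DMSO, 12 were higher and 8 lower in E0771, so 74.1% passed beside 74.5% of all genes, with a median difference of 0.14 beside -0.09. Flot2, a flotillin of flat rafts, had 0.138 CPM in E0771 and 112 CPM in AT-3, while Flot1, the other flotillin, had 57.6 CPM in E0771 and 39.2 CPM in AT-3. Stom, encoding stomatin, had 148 CPM in E0771 and 13.0 CPM in AT-3 (3.51 ± 0.11, adjusted p = 8.06e-23). Tgfbr2, a TGF-beta receptor subunit, had 13.9 CPM in E0771 and 197 CPM in AT-3 (-3.83 ± 0.10, adjusted p = 1.96e-25). Pacsin2, a membrane-bending protein of caveolae, had 342 CPM in E0771 and 140 CPM in AT-3 (1.29 ± 0.06, adjusted p = 3.96e-20). Ehd3 had 2 counts in all of E0771 and 2.16 CPM in AT-3 in DMSO, Ror1, a receptor known to scaffold caveolar proteins, had 2 counts in E0771 and 30.2 CPM in AT-3, and Cd36 had 2 counts in E0771 and 14 in AT-3.

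In E0771 with KCl, 8 of 23 partners rose and 2 fell, 43.5% beside 36.4% of all genes, with a median change of 0.14 beside -0.01. The 4 with the smallest adjusted p all rose: Dnm2, the dynamin that cuts vesicles free (444 CPM with KCl and 300 CPM in DMSO, 0.58 ± 0.04), Stom (0.67 ± 0.07), Ehd1, a membrane-remodelling ATPase (0.33 ± 0.05), and Abl1, a kinase linked to actin (0.31 ± 0.05), each past the threshold in 14 of 14 alternatives. The rise of Dnm2 differed between the lines (E0771 minus AT-3, 0.66 ± 0.07, adjusted p = 3.06e-08). So did the change of Flot1 (-0.84 ± 0.14, adjusted p = 9.66e-05), which fell in E0771 by 0.42 ± 0.10 and rose in AT-3 by 0.41 ± 0.09.

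With NS11021 in E0771, 3 of 23 partners rose and 5 fell (34.8% beside 26.3% of all genes), and with BMS204352, 3 rose and 7 fell (43.5% beside 22.7%). Ehd2, the ATPase that holds caveolae at the membrane neck, had the smallest adjusted p of the list in both. It had 86.3 CPM with NS11021, 91.0 CPM with BMS204352 and 132 CPM in DMSO, changes of -0.61 ± 0.06 (adjusted p = 4.1e-08) and -0.53 ± 0.06 (7.67e-07) that share the DMSO libraries and held in all alternatives. Against KCl in E0771, Ehd2 also fell with NS11021 added (-0.30) and Ehd4 with BMS204352 added (-0.51), each in all 14 alternatives. In AT-3 with KCl, 3 of 26 partners rose and 0 fell (11.5% beside 4.83% of all genes): Src, a kinase that phosphorylates caveolin (0.38 ± 0.08), Flot1 (0.41 ± 0.09) and Ankrd13b (0.35 ± 0.07). In AT-3 with BMS204352, Tgfbr2 fell by 0.57 ± 0.10 (adjusted p = 0.00533), a call lost in a fit to the groups compared alone (0.0964). There Flot1 rose by 0.31 ± 0.09 (adjusted p = 0.0426), the other of 2 partners in 26 that passed (7.69% beside 5.27% of all genes). The Flot1 call was lost in 6 of 14 alternatives, without BMS204352 replicate 3, without any 1 DMSO replicate, without the 3 libraries that stood apart and in a fit to the groups compared alone (adjusted p up to 0.293).

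**Figure D4:**
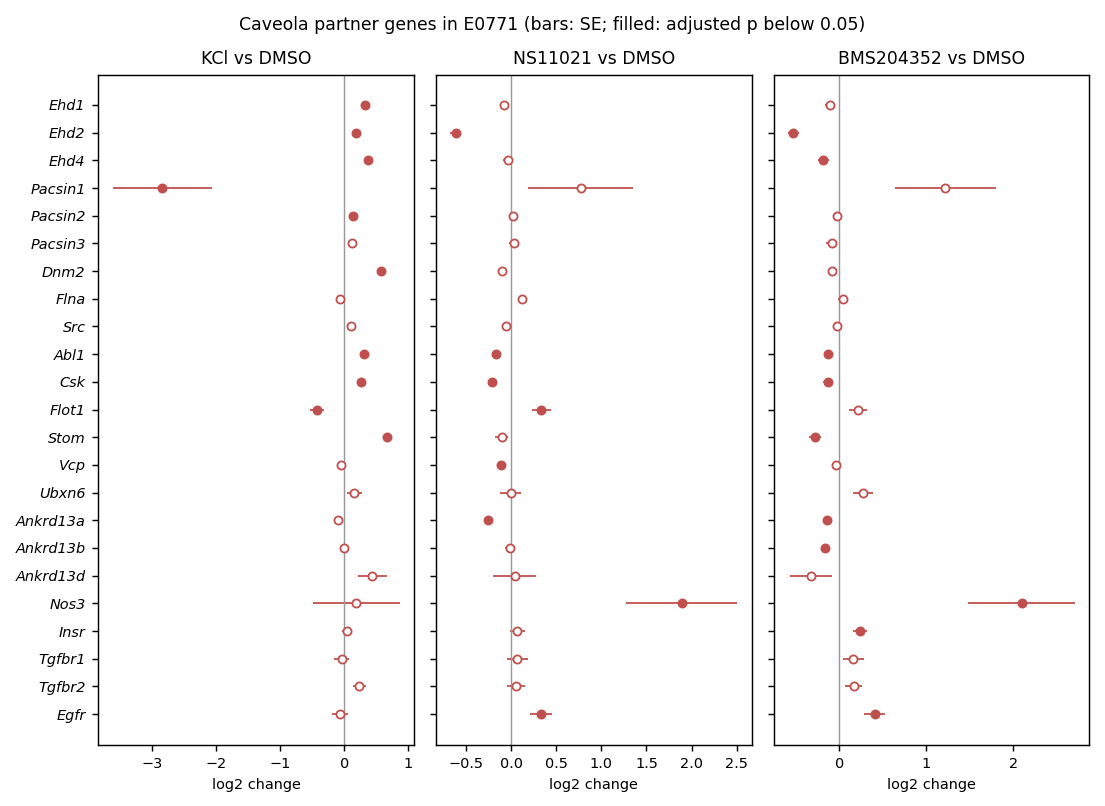
Log2 change of the 23 caveola partner genes tested in E0771 with KCl, NS11021 or BMS204352 against DMSO; bars are SE and filled points had an adjusted p below 0.05. Dnm2 (0.58) and Stom (0.67) rose with KCl and Ehd2 fell with NS11021 (-0.61) and BMS204352 (-0.53); Pacsin1 and Nos3 have the widest bars and levels below 1 CPM, and the x axes differ.

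The levels of the 5 genes followed one another only in part. These correlations of log2 CPM over 18 libraries are a description: the libraries share treatments, and in both lines replicate 3 of BMS204352 stood apart, in AT-3 also that of KCl with BMS204352. In E0771 that BMS204352 library was the lowest of the 18 for Cavin1 (447 CPM) and Cavin3 (35.0 CPM). In AT-3 the BMS204352 replicate 3 library was the highest of the 18 for all 5 genes. It had Cav1 at 349, Cav2 at 73.6, Cavin1 at 79.9, Cavin2 at 145 and Cavin3 at 2.83 CPM, and correlations without it were not computed. In E0771, Pearson's r was 0.53 between Cav1 and Cav2 (Spearman's rho 0.48), 0.72 between Cavin1 and Cavin3 (rho 0.63) and 0.08 between Cavin1 and Cavin2 (rho 0.03). In AT-3 it was 0.86 between Cav1 and Cav2 (rho 0.82), 0.89 between Cav1 and Cavin1 (rho 0.81) and 0.34 between Cav1 and Cavin2 (rho -0.03). Among 9464 genes of sufficient level in E0771, those most like Cavin2 included Ptpn6 (r = 0.98) and Hoxd10 (0.98), those most like Cav1 were Anxa1 (0.94), Trim37 (0.92) and Rsu1 (0.92), and those most like Cav2 were Tpm1 (0.86), Actb (0.84) and Ccn4 (0.82). Cavin1 was most like Lgals9 (0.96), Rrm1 (0.96) and Ube2n (0.95), and Cavin3 most like Plekhf1 (0.85), Kif22 (0.84) and Sumo2 (0.84). Among 10220 genes in AT-3, Cavin2 was most like Inhba (0.94), Ube2g2 (0.93) and Sdc2 (0.93), Cav1 most like Tagln2 (0.95), Krt14 (0.95) and Nomo1 (0.94), and Cav2 most like Spns2 (0.91), Mboat1 (0.91) and Crtap (0.90). Cavin1 was most like Npnt (0.97), Myadm (0.97) and Esd (0.96), and Cavin3 most like Pvt1 (0.84), Lonp1 (0.79) and Tasp1 (0.74). No gene was among the 3 most like the same member in both lines.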

How the data were processed

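Per the labels' protocols, RNA was isolated with Qiagen RNeasy and sequenced from NuGen Universal Plus mRNA libraries. The deposited values are raw counts per gene; the submitters' processing notes name STAR, featureCounts and GRCm38, and neither versions nor the counting strand are given in the sources used here. Among counts of 1 to 10, 84.5% were even, so fits were repeated on halved counts. The 2 IDs of human form (6 counts) were left out.

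The members and gene lists were chosen with earlier results of these data known. From the counts, R 4.3.3 with edgeR 4.0.16 (filterByExpr, minimum count 10, minimum total 15; TMM; robust quasi-likelihood test) was run across all genes on the 18 libraries per line, and on all 36 for differences between lines, with Benjamini-Hochberg adjustment inside each of 22 comparisons. Library totals of 31.2 to 52.6 M and a replicate coefficient of variation of 0.0707 (E0771) and 0.116 (AT-3) set the precision. The named genes were the 5 members, up to 4 partner genes per comparison with the smallest adjusted p, partners at 0 or below the filter, and the 3 genes most correlated with each member (mean log2 CPM of at least 2, prior count 2); 1 of these is not reported here. The alternatives were DESeq2 1.42.0, its size factors, no filter, 1 CPM in 3 libraries, halved counts, a replicate block, the groups compared alone, omission of the 3 libraries that stood apart, and omission of each replicate. Scripts were tested on simulated data.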

Additional observations from a re-analysis of the deposited data

Results flagged for a closer look

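On the log2 scale, the effect of KCl on Cavin2 differed between the lines by a test of the difference itself. It was 1.95 ± 0.28 (E0771 minus AT-3, edgeR, adjusted p = 2.44e-05), with changes of 2.27 ± 0.23 in E0771 and 0.31 ± 0.15 in AT-3. All 3 KCl libraries lay above all 3 DMSO libraries in both lines.

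The effect of BMS204352 differed between the lines for 4 genes by the same test (E0771 minus AT-3): Cav2 by -0.40 ± 0.12, Cavin1 by -1.78 ± 0.51, Cavin2 by -1.21 ± 0.35 and Cavin3 by -0.99 ± 0.26, with adjusted p from edgeR of 0.0223 to 0.0425. The 4 differences were lost without the 3 libraries that stood apart, where they were -0.21, -0.65, -0.59 and -0.58.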

How the results depend on the processing

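Of 1750 values of the 5 genes under the alternatives, 1629 kept their side of the threshold, 73 lost it, 48 passed newly and 0 called values changed sign; 51 uncalled values changed sign. The line differences in DMSO, the KCl rise of Cavin2 in E0771 and its line difference, the Cav1 rise with NS11021 and the Cavin2 fall when BMS204352 was added to KCl passed in every alternative run for them. Low counts (24 to 429 for Cavin2 in E0771, 40 to 136 for Cavin3 in AT-3) limit the changes of those genes. Where a call or count moved, the cause was not tested.

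The counts of members passing that moved by over 1.5 times were as follows. For AT-3 BMS204352 against DMSO (0) it was 2 with DESeq2 and 1 with the 1 CPM filter, halved counts or the replicate block. For AT-3 KCl against DMSO (0) it was 1 with the replicate block or the groups compared alone and 2 without the 3 libraries that stood apart. For AT-3 KCl with NS11021 against DMSO (0) it was 1 with no filter and 2 with the replicate block, without those 3 libraries or with the groups alone. For E0771 KCl with NS11021 against KCl (1) it was 3 with the groups alone and 2 with DESeq2, its size factors, the 1 CPM filter, halved counts, the replicate block or without those 3 libraries. It was 1 for E0771 NS11021 (2) with halved counts and 0 for E0771 BMS204352 (2) with the groups alone. For the line differences it was 2 without those 3 libraries for KCl (1), 2 without them or with the groups alone for NS11021 (0), and for BMS204352 (4) 2 with no filter and 0 without them or with the groups alone. Smaller moves, by 1 gene, were to 3 for E0771 KCl (2) with the groups alone, for E0771 NS11021 (2) with DESeq2 or without those 3 libraries and for E0771 KCl with NS11021 against DMSO (2) without them or with the groups alone. They were also to 2 with no filter and 4 without those libraries for E0771 KCl with BMS204352 against KCl (3), and to 3 on halved counts and 5 with DESeq2 or the replicate block for the line difference with BMS204352 (4).

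With 1 replicate left out in turn, the counts ranged from 0 to 2 for AT-3 BMS204352, 0 to 1 for AT-3 KCl with BMS204352, 1 to 2 for E0771 KCl, 1 to 3 for E0771 NS11021, 1 to 2 for E0771 BMS204352, 1 to 4 for E0771 KCl with BMS204352 (all against DMSO), 2 to 4 for E0771 KCl with BMS204352 against KCl, and for the line differences 1 to 2 for KCl and 0 to 5 for BMS204352. Of 14 comparisons, 0 had every correlation between the deviations of same-numbered libraries over 0.1 (lowest -0.0325). The main fits therefore took the libraries to share only a number. As a hint from the data, every library correlated best with its own number in 7 of the 14. In AT-3 this held in all comparisons but BMS204352 against DMSO, and in E0771 only in KCl with NS11021 against KCl. On PC3 of AT-3, replicate 2 scored lowest and replicate 3 highest in every group. With a replicate block in edgeR, Cavin2 newly passed in AT-3 with KCl (adjusted p = 0.0360) and with KCl and NS11021 (0.0346). Cav2 newly passed there with KCl and NS11021 (0.0412) and Cav1 with BMS204352 (0.00291).

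Counts over all genes moved by over 1.5 times in some alternatives. Over the settings other than left-out replicates they ranged in AT-3 from 667 to 1345 for KCl (714 as reported), 9 to 146 for NS11021 (11), 10 to 1455 for BMS204352 (779), 681 to 1611 for KCl with NS11021 (743), 3 to 39 for KCl with NS11021 against KCl (3), 178 to 620 for KCl with BMS204352 against KCl (183) and 0 to 6 for the KCl and BMS204352 interaction (0). They ranged from 27 to 235 and 111 to 415 for the E0771 interactions with NS11021 (29) and BMS204352 (217), and from 467 to 1172 and 141 to 1313 for the line differences in the NS11021 (637) and BMS204352 (800) effects. With 1 replicate left out they ranged in AT-3 from 393 to 507, 0 to 8, 146 to 1743 and 365 to 454 for KCl, NS11021, BMS204352 and KCl with NS11021 against DMSO, 893 to 1881 for KCl with BMS204352 against DMSO (1941), and 0 to 3 and 20 to 214 for NS11021 and BMS204352 added to KCl. In E0771 they ranged from 1759 to 2408 for KCl with BMS204352 against KCl (2663) and from 6 to 23 and 83 to 322 for the interactions with NS11021 and BMS204352. For the line differences they ranged from 270 to 552 for NS11021 and 556 to 1205 for BMS204352.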
